A study of Mus musculus with 4 samples.

Results

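The genes of the circadian clock and the related gene Noct were followed through 4 arrays of mouse CH10T1/2 cells, a fibroblast line that can enter cartilage, bone, fat and muscle fates. They comprised 10 genes out of 12393 on the array: the repressor genes Per1, Per2, Per3, Cry1 and Cry2, the activator gene Clock, the nuclear receptor genes Nr1d1 and Nr1d2, the output regulator gene Dbp, and Noct. All 17 probe sets that the platform annotation ties to these symbols were taken, out of 22690, and 16 of them name 1 gene alone. The genes were chosen by name, Per1 as a known target of cAMP and CREB, but Noct was selected on its measured difference between the lines, and earlier results of these arrays were known when the group was drawn up. Differences between the lines are therefore given for all 10 genes as a description, with no test.

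Each array stands for 1 group. The WT line was stably transfected with wild-type PTHR1, which binds both PTH and PTHrP, and the R150C line with the R150C variant of that receptor found in enchondromas. Cells of both lines were kept overnight without serum and then given PTHrP at 1e-07 M, or control medium, for 1 h; the series text names carrier as the control, while the WT control sample's own labels say only control. Each receptor is represented by 1 transfected line, so receptor and line cannot be told apart, and the labels do not say whether a line is a clone or a pool. All cells were collected at a single time point, so the arrays give levels of clock transcripts and no rhythm.

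The mammalian clock is a feedback loop of transcription. CLOCK pairs with BMAL1, binds E-box elements and switches on the Per and Cry genes, whose proteins return to the nucleus and repress that pair. A second loop runs through the REV-ERB receptors, encoded by Nr1d1 and Nr1d2, which repress Bmal1, and DBP and its relatives pass the rhythm on to genes with D-box elements. Fibroblasts carry this clock, and serum, cAMP and growth factors can reset it, with Per1 responding as an early gene. Noct encodes nocturnin, a protein related in sequence to the CCR4 deadenylases and described as rhythmic in several tissues and as an early gene in cultured cells.

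The start regions of Per1 and Noct are shown because these genes carried the largest differences after PTHrP and between the lines among the members that passed the filter on level described below. RefSeq (GRCm38.p6) windows from 250 bases before to 50 after an annotated start were matched by symbol for 9 of the 10 genes, the missing one being Per2, and gave 12 windows, 2 of them for Per1. The Per1 windows lie on the plus strand at chr11:69098699-69098998 and chr11:69099902-69100201, and the Noct window on the plus strand at chr3:51224197-51224496. Capitals mark the E-box CACGTG and the half-site TGACG of the cAMP response element, found on either strand.
Per1, start 1: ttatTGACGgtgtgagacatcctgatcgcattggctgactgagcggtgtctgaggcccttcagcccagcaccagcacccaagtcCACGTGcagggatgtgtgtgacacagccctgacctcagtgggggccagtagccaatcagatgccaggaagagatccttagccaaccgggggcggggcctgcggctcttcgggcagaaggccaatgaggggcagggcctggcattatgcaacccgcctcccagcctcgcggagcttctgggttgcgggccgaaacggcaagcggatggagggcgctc
Per1, start 2: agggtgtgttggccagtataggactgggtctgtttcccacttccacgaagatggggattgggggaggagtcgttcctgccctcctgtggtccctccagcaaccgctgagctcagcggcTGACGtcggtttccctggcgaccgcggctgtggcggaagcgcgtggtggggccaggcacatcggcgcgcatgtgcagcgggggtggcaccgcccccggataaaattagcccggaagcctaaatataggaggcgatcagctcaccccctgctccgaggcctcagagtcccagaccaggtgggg
Noct: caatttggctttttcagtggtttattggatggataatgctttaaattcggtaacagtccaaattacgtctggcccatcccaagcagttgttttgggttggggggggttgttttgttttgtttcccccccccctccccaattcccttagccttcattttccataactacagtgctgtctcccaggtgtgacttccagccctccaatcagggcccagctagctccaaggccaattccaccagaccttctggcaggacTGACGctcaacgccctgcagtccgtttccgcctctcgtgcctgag

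The Per1 window at start 1 held the E-box at position -166 and the half-site at -246, and the window at start 2 held the half-site at -132, counting the first transcribed base as 1. In the Noct window the half-site began at position 6, inside the transcript. The E-box occurred in 2 of the 12 windows (Per1 and Cry1), against 7.15% of 32851 windows over all genes. The half-site occurred in 5 of the 12 (Per1 at both starts, Cry1, Cry2 and Noct), against 20.8% of all windows, and the full element TGACGTCA, which contains it, in 0 of the 12, against 1.79%. AGGTCA, the half-site bound by REV-ERB and ROR receptors, was found in the windows of Per1, Clock and Nr1d2 (16.3% of all windows), the D-box TTANNTAA in that of Per3 (6% of all) and the AP-1 element TGANTCA in none (7.81% of all). All were searched on both strands, and a match describes letters in a window, not a bound site.

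Signals are the deposited linear intensities, and the 4 values of a gene are given in the order WT control, WT PTHrP, R150C control and R150C PTHrP. Differences were taken between centred values of log2(signal + 16), and they understate the change of dim genes. A gene passed the filter on level when its mean over the 4 arrays reached the median over genes, which corresponds to a signal of 62.6, and 6197 genes passed. Among the members Per1, Clock, Nr1d1, Nr1d2 and Noct passed, and Per2, Per3, Cry1, Cry2 and Dbp did not. With 1 array per group a single difference has no replicate error. As a description of the spread, the difference between the PTHrP responses of the lines had an SD of 0.35 over the genes that passed and 0.54 over the dimmer ones, which gives 0.25 and 0.38 for the difference between a pair of arrays.

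The arrays carried fibroblast markers in all groups. The 8 fibroblast markers summed to signals from 31244 to 40427 per array and all passed the filter. None of 3 leukocyte markers passed, with Ptprc at 16.3 or less, Cd52 at 7.4 or less and Lyz2 at 47.1 or less. Of 3 epithelial markers the keratin gene Krt8 passed, at 65.2 to 83.9, while Epcam stayed at 3.5 or less and Cdh1 at 12.8 or less. Of 5 cartilage markers 1 passed, Col2a1, at 1106 to 1481, with Acan at 41.7 or less. Of 3 bone markers with a probe set 1 passed, Sp7, at 45 to 117.4. Of 2 fat markers with a probe set 1 passed, Fabp4, at 129.3 to 185.6. None of 4 skeletal muscle and 3 endothelial markers passed. The ratio of the 3' to the 5' control probe set of Gapdh was 0.845, 1.17, 0.991 and 1.21, so it was higher in the PTHrP array of each line.

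**Figure D1:**
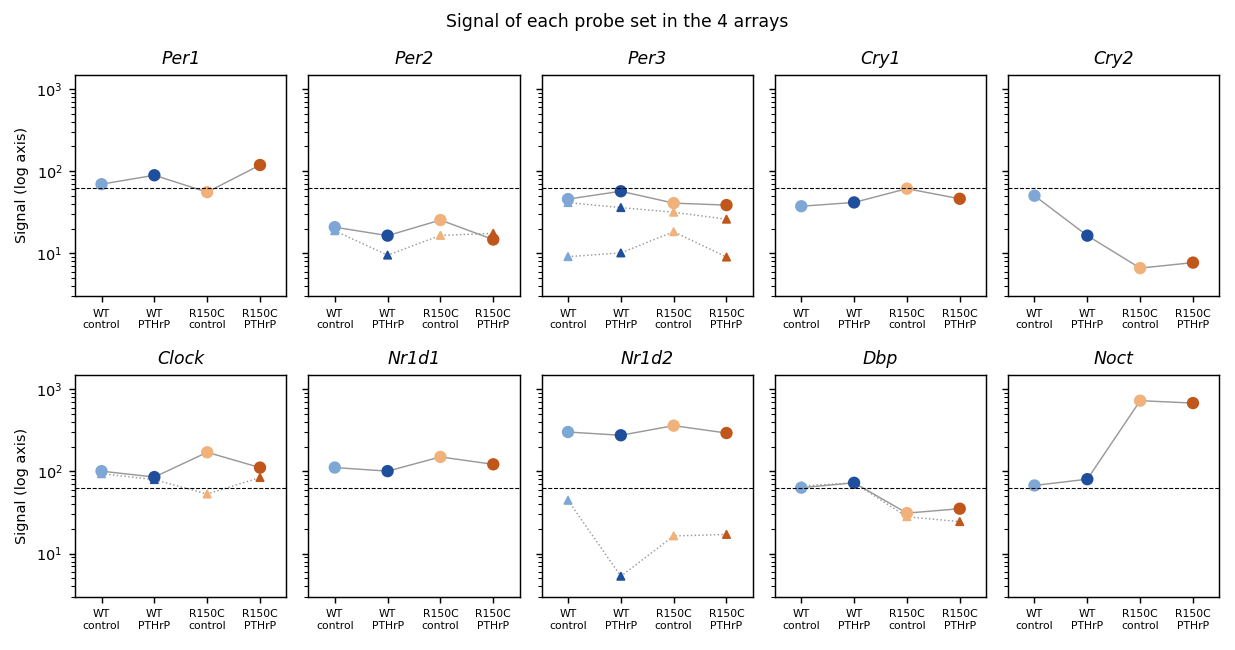
Signal of the 16 probe sets that name 1 member alone, on a log axis, in the WT (blue) and R150C (orange) arrays with control medium (light) or PTHrP (dark); circles are the probe set that stands for the gene, triangles its other probe sets, and the dashed line is the filter level of 62.6. Noct is the gene whose R150C arrays (726.9 and 679.7) stand far above its WT arrays (67.5 and 80.5), Dbp lies lower in the R150C arrays by both probe sets, and Per1 peaks in the R150C PTHrP array at 118.7.

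Among the repressor genes, Per1 had the highest value after PTHrP in both lines. Per1 read 69.4, 89.1, 55.5 and 118.7, against a filter level of 62.6. Its R150C control signal lay under that level and its WT control signal not far above it. The pass of Per1 through the filter thus leaned on its PTHrP arrays. Its lowest and its highest signal were both in the R150C line, before and after PTHrP, and the WT arrays lay between them. The signal after PTHrP was 2.14 times that of the control array in the R150C line and 1.28 times in the WT line, or differences of 0.91 and 0.28 (log2). The R150C value ranked 15 among the 6197 genes that passed the filter, and 1.19% of them were at least 1.5-fold higher in that contrast, but it fell short of 2-fold on the log2(signal + 16) scale. The Per1 response differed by 0.63 between the lines, which lies inside the central 95% of genes that passed (-0.65 to 0.72).

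Fitted over both lines by limma's additive model, the Per1 difference after PTHrP was 0.59 (SE 0.18, higher in both lines). Since the pass of Per1 through the filter leaned on its PTHrP arrays, it is given no test. Adjusted p-values of other genes below are limma's, with Benjamini-Hochberg adjustment over all genes fitted. Over the alternative settings the Per1 difference ran from 0.39 with a pseudocount of 64 to 0.72 when arrays were centred on all probe sets. That centring left the genes that passed with a median PTHrP difference of 0.12 over both lines. The Gapdh 3' to 5' ratio moved the same way as Per1 in both lines, and its part in the Per1 values was not tested. In the line contrast Per1 read -0.29 in control medium and 0.34 under PTHrP, so its sign turned with the medium.

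Per2 and Per3, the other PER repressor genes, stayed dim. The Per2 probe set that stands for the gene read 20.8, 16.4, 25.4 and 14.7, and the other one 18.8, 9.5, 16.5 and 17.5. Both Per2 probe sets were lower after PTHrP in the WT line (-0.20 and -0.47), and they differed in sign in the R150C line (-0.44 and 0.04). The 3 Per3 probe sets lay between 9.0 and 56.9, and the one that stands for the gene read 45.7, 56.9, 40.8 and 38.6. Its R150C arrays were below its WT arrays in each medium (-0.15 and -0.44), and the second brightest Per3 probe set differed in the same direction (-0.30 and -0.33), while the dimmest gave 0.42 and -0.08.

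The cryptochrome genes encode the partners of the PER proteins in repression. Cry1 read 37.4, 41.6, 61.2 and 46.1, highest in the R150C control array, and its line difference was 0.50 with control medium and 0.09 with PTHrP. Cry2 read 50.2, 16.4, 6.6 and 7.7. The WT control array alone carried most of the Cry2 signal, and the other 3 arrays were at 16.4 or less. The Cry2 difference between the lines was -1.58 in control medium and -0.47 under PTHrP, and the difference after PTHrP was -1.05 for WT and 0.06 for R150C. All of these rest on 1 dim probe set, and the difference of 1.11 between its PTHrP responses lies inside the central 95% of the genes below the filter (-1.08 to 1.15).

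The activator gene Clock gave unlike answers from its 2 probe sets. The probe set that stands for the gene read 100.8, 85.4, 171 and 111.4, and the other read 93.7, 79.6, 53.1 and 84.3. In the R150C control array the first was at its highest and the second at its lowest, while the WT arrays of both went the same way. The line difference in control medium was accordingly 0.65 by the first and -0.70 by the second, and the difference after PTHrP in the R150C line -0.56 and 0.53. After PTHrP both gave -0.22 in the WT line. Fitted over both lines the first gave -0.39 after PTHrP (SE 0.16, lower in both lines), with an adjusted p of 0.858 by limma, and the mean over the 2 probe sets gave -0.08. Since the R150C control array enters both contrasts, the line difference and the PTHrP difference in that line are not independent of each other.

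The REV-ERB receptor genes, repressors of Bmal1, gave small values. Nr1d1 read 111.5, 100.9, 150.2 and 122.1, and Nr1d2 read 301.9, 275.7, 360.9 and 293.5 by its brighter probe set. Both were highest in the R150C control array and lowest in the WT PTHrP array. The line difference was 0.35 and 0.22 for Nr1d1 (control, PTHrP) and 0.21 and 0.06 for Nr1d2. After PTHrP Nr1d1 gave -0.14 (WT) and -0.28 (R150C), and Nr1d2 -0.14 and -0.29, with adjusted p of 0.915 for each over both lines by limma. When arrays were centred on all probe sets the WT values turned to 0.04 for both genes. The dimmer Nr1d2 probe set read 44.5, 5.3, 16.4 and 17.1 and gave -1.53 after PTHrP in the WT line against 0.02 in the R150C line.

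Dbp, which encodes a PAR bZIP activator that binds D-box elements, was lower in both R150C arrays by both of its probe sets. The first read 63.4, 72.7, 31.1 and 35.2, and the second 66.5, 72.6, 28.1 and 24.5. The WT arrays and the R150C arrays did not overlap in either, and the signals of the R150C line were 0.491 (control) and 0.484 (PTHrP) times those of the WT line by the first. On the log2 scale that was -0.79 and -0.81, and -0.94 and -1.15 by the second. After PTHrP the first probe set gave 0.14 (WT) and 0.11 (R150C). The gene lay below the filter in the mean of the 4 arrays.

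Noct stood apart from the other members between the lines, which is the measurement it was selected on. Noct read 67.5, 80.5, 726.9 and 679.7. The R150C signals were 10.8 times the WT signal in control medium and 8.44 times under PTHrP, with no overlap, or differences of 3.12 and 2.83 (log2), and over both media Noct ranked 6 among the genes that passed. The difference ran from 2.56 to 3.38 in control medium over the alternative settings. A second probe set annotated to Noct also names Sgip1 and Cog6, so it cannot be assigned to 1 gene. It read 2601, 2513, 1768 and 2420 and did not show the difference between the lines (-0.58 and -0.07). After PTHrP Noct gave 0.19 (WT) and -0.10 (R150C), and over both lines at 0.04 (SE 0.15), higher in 1 of 2 lines, with an adjusted p of 0.987 by limma.

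Counted at 2-fold, Noct was the single member among the 5 that passed the filter to be higher in the R150C line, in either medium. Over all genes that passed, 2.03% were at least 2-fold higher in control medium and 2.16% under PTHrP, and 0.968% and 0.726% were at least 2-fold lower, where none of these 5 members lay. By order alone, both R150C arrays lay above both WT arrays for Cry1, Clock, Nr1d1 and Noct, and below them for Per3, Cry2 and Dbp. Of the 5 members that passed, 3 lay above and 0 below, against 23.0% and 33.2% of all genes that passed. Cry1 and the 3 genes below did not pass. Among the 3 above, Noct was selected on its difference between the lines. The second Clock probe set did not follow the first, at -0.70 in control medium and 0.05 under PTHrP. The median line difference over the 10 members was 0.18 with control medium and 0.08 with PTHrP, against -0.03 and -0.04 over all 12393 genes. After PTHrP none of the 5 members reached 2-fold in either line, as against 0.387% of genes for WT and 0.145% for R150C. The medians after PTHrP were -0.03 and -0.19 over the 10 members, against -0.02 and -0.04 over all genes. By limma's additive fit over both lines 0 genes (0% of 6197) were called after PTHrP. An unadjusted limma p under 0.05 was reached by 345 of the 6197, a share close to that cutoff. Clock (0.0291) was among them, while Per1 is given no test. The Clock value rests on 1 probe set, and its other probe set gave a difference of 0.16 over both lines.

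**Figure D2:**
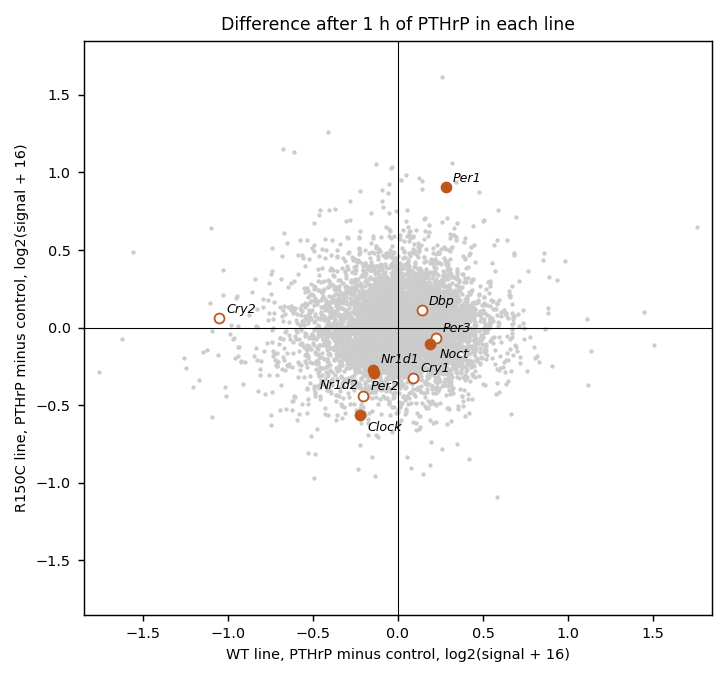
Difference after 1 h of PTHrP on the log2(signal + 16) scale for WT (horizontal) and R150C cells (vertical), with the 6197 genes that passed the filter in grey, members that passed as filled circles and dimmer members as open circles. Per1 lies at 0.28 and 0.91, above the other members on the vertical axis, and Cry2 lies at -1.05 in the WT line.

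Other genes of the clock loop, from a list drawn up with earlier results of these arrays known, differed between the lines in both directions. Of 14 genes, 12 had a probe set and 5 passed the filter. By limma over both media, with an adjusted p under 0.05 under each of 4 scalings, Bhlhe40 was higher in the R150C line and Timeless and Tef lower, while Cipc, an inhibitor of CLOCK, was not called (0.31, adjusted p 0.225). The remaining gene, Nfil3, passed the filter only through its R150C arrays, so its values are given with no test. Over all genes that passed, 5.08% were called higher and 2.89% lower by that rule, genes that passed through 1 line alone included. The median line difference over the 12 genes was 0.05 with control medium and -0.18 with PTHrP.

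Bhlhe40 encodes DEC1, a repressor that competes for E-boxes. It read 66.9, 80.5, 353.6 and 362.8, with the R150C arrays far above the WT arrays. The difference was 2.04 (SE 0.15), higher in both media, with a largest adjusted p of 0.000134 over the scalings by limma. Its relative Bhlhe41 was dim, at 26.1, 22.6, 8.7 and 15. Timeless, whose product acts mainly at replication forks in mammals, read 237.5, 239.6, 99.0 and 110.5, a difference of -1.10 (SE 0.15, lower in both media, largest adjusted p 0.00274 by limma), and its second probe set gave -0.98.

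The genes that act on D-box elements lay on both sides. Nfil3 encodes a repressor at the D-box and read 50.4, 42.9, 105.7 and 79.3, with both WT arrays under the filter level and differences of 0.84 and 0.67. Tef encodes an activator of the same family as DBP and read 475.8, 621.3, 307.9 and 330.5, with a difference of -0.77 (SE 0.15, both media, largest adjusted p 0.0171 by limma). A second Tef probe set gave -1.31. The dimmest gave -0.07 over both media, from -0.51 in control medium and 0.38 under PTHrP. Hlf, the remaining PAR bZIP gene, was dim, at 37.6, 29.3, 22.7 and 21.1, with differences of -0.50 and -0.31. Together with the 2 Dbp probe sets, the differences of the DBP family lay below 0 in both media for each probe set that stands for its gene. Of these genes Dbp and Hlf did not pass the filter. By order, both R150C arrays lay below both WT arrays for 33.2% of all genes that passed.

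Bmal1, the partner of CLOCK, lay below the filter at 25.7, 49.0, 82.0 and 87.4, lowest in the WT control array, and differed by 1.20 in control medium and 0.65 under PTHrP. Npas2, the substitute for CLOCK, read 6.7 or less in all arrays. The ROR activator genes Rora and Rorb lay below the filter too, with Rora at 0.10 and -0.40 and Rorb at -0.50 and -0.75. Without the filter limma called 33 genes between the lines in place of 601, and Bhlhe40 kept its call (adjusted p 0.0369), while Timeless (0.0957) and Tef (0.181) lost theirs.

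**Figure D3:**
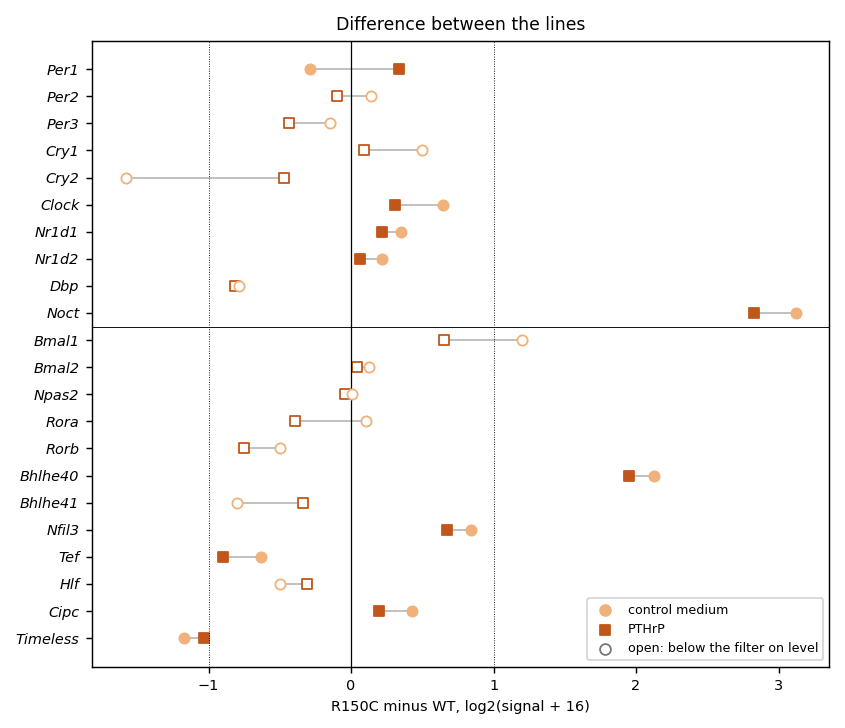
Difference between the lines (R150C minus WT) on the log2(signal + 16) scale in control medium (circles) and under PTHrP (squares) for the 10 members, above the rule, and 12 other genes of the clock loop, below it; open symbols mark genes below the filter and dotted lines mark 2-fold. Noct and Bhlhe40 lie furthest to the right, Timeless lies near -1, and the Per1 symbols lie on either side of 0.

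This list and those that follow were also drawn up with earlier results of these arrays known. Of 10 genes whose products modify clock proteins, 8 had a probe set and 7 passed. Among all genes that passed, 5.08% were called higher in the R150C line under each of 4 scalings. Csnk1e, which encodes casein kinase 1 epsilon, a kinase that marks PER proteins for degradation, read 162.9, 138.8, 337.2 and 303.1. It was higher in the R150C line by 0.99 (SE 0.15, both media, largest adjusted p 0.00388 by limma, 0.117 without the filter), and its second probe set gave 1.21. Csnk1d, Fbxw11, Gsk3b, Usp2, Nono and Wdr5 were not called, with differences from -0.18 (Nono) to 0.49 (Usp2). After PTHrP limma called none of the 7, nor of the 5 clock loop genes that passed, and 0% of all 6197 genes. Of 6 genes known as clock outputs 5 had a probe set and 4 passed, and none was called after PTHrP either. Between the lines none of the 4 was called, against 5.08% of all genes that passed called higher and 2.89% lower. Wee1, a kinase gene that restrains entry into mitosis, differed by -0.41 between the lines (adjusted p 0.124 by limma).

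The difference in Noct was not seen in the genes nearest to it in sequence. Its relatives in the family of CCR4-type exonucleases, Cnot6, Cnot6l, Angel1, Angel2 and Pde12, had line differences between -0.60 and 0.24 in the single media. None of the 4 that passed was called by limma (smallest adjusted p 0.212, Cnot6l). Few genes were called in any case, 5.08% of all that passed as higher and 2.89% as lower. Among 13 genes of deadenylase complexes and their adaptors 9 had a probe set and 8 passed, and Tob1 alone was called. The share called lower among all genes that passed was 2.89%. Tob1 encodes an adaptor that recruits deadenylases and read 376.6, 313.8, 121.2 and 122.8, lower in the R150C line by 1.41 on the log2 scale (value -1.41, SE 0.15, both media, largest adjusted p 0.000958 by limma, 0.0728 without the filter).

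Early genes of cAMP and CREB, which share that input with Per1, were set beside it after PTHrP. Of 10 such genes 9 had a probe set and 6 passed. None of the 6 was called after PTHrP by limma, which called 0% of all 6197 genes there. Their median was -0.14 (WT) and -0.13 (R150C), against -0.02 and -0.04 over all genes. In the R150C line, where Per1 stood at 0.91, Nr4a1 gave 0.01, Rgs2 -0.05, Dusp1 -0.08, Fos -0.19, Sik1 -0.27 and Junb -0.43. Between the lines Junb was higher and Fos and Dusp1 lower by limma under each scaling. By that rule 5.08% of all genes that passed were called higher and 2.89% lower. Each of the 3 calls of Junb, Fos and Dusp1 was lost without the filter (adjusted p from 0.0531 to 0.0787 by limma). Rgs2 read 137.2, 105.5, 60 and 57.8, and it passed the filter only through its WT arrays, so it is given no test.

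The genes that passed the filter were also ranked by how closely their profile over the 4 arrays followed that of Noct or Per1, as the Euclidean distance between log2 profiles after subtraction of each gene's mean. Nearest to Noct was Ereg, a gene for a ligand of the EGF receptor, at a distance of 0.13, with signals of 117.2, 123.2, 1188 and 1067. Dusp6, which encodes an ERK phosphatase (0.33), the hyaluronan synthase gene Has2 (0.45), the cytokine gene Lif (0.58) and Sema7a (0.61) followed. Likeness to Noct is what chose these genes, and Lif and Sema7a passed the filter only through their R150C arrays. Nearest to Per1 were Tomm7, which encodes a small subunit of the mitochondrial import pore (0.11), Rnf145 (0.20), Pou6f1 (0.22), Dyrk1b (0.23) and Gpank1 (0.24). These were likewise chosen by likeness to Per1, and Pou6f1 passed the filter only through its PTHrP arrays (62.2 and 56.1 in the control arrays). Tomm7 read 336.2, 435.4, 260.7 and 517.9, with 0.94 after PTHrP in the R150C line and 0.34 in the WT line, beside 0.91 and 0.28 for Per1. With 4 arrays these distances describe the arrays only.

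**Figure D4:**
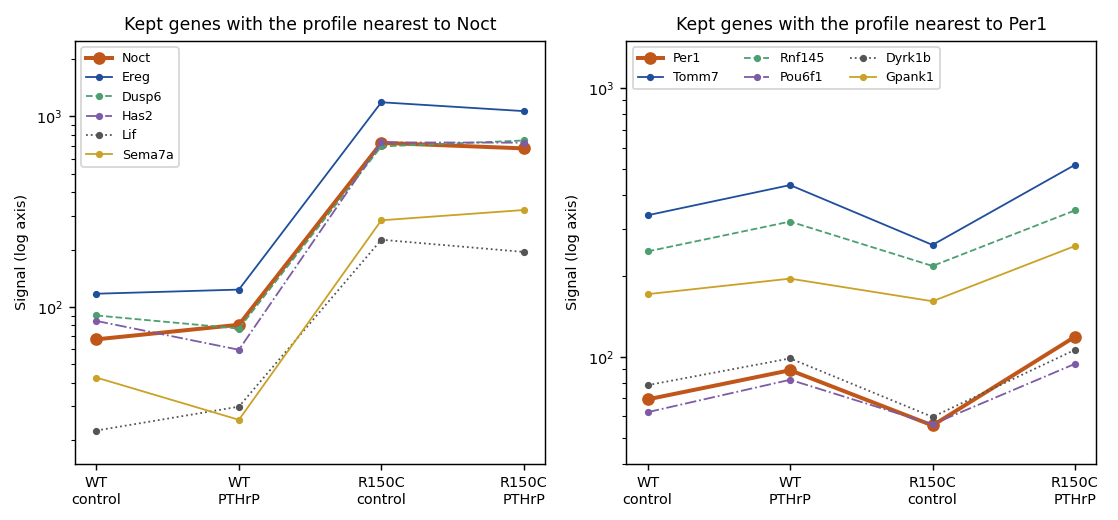
Signal on a log axis in the 4 arrays for Noct (left, thick line) and Per1 (right, thick line) with the 5 genes whose centred log2 profiles lay nearest to each. The Noct group steps up between the WT and the R150C arrays, and the Per1 group peaks in the PTHrP array of each line and dips in the R150C control array.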

How the data were processed

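RNA from 4 groups, 1 array each, was hybridised to Affymetrix Mouse Genome 430A 2.0 arrays. Deposited values are intensities on a linear scale, 1 per probe set, which the authors computed in Expression Console (Affymetrix) according to the submitters' processing notes. Version and summarisation were not given in the sources used here. The mean after trimming 2% at each end was 150.1 in every array, and no detection calls were used.

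Control probe sets (64) were left out. Of the others 20380 had 1 gene symbol, 691 several and 1555 none in the platform annotation; 20351 matched RefSeq by Entrez identifier. The brightest probe set stood for a gene. Values were log2(intensity + 16), centred on each array's median over the genes that passed the filter (mean log2 at or above the median). limma 3.58.1 (R 4.3.3) was fitted across all 6197 genes with line and PTHrP as terms, 1 residual degree of freedom and Benjamini-Hochberg adjustment at 0.05. Its p-values test the line term or the PTHrP term against an error taken from the departure from additivity between these arrays. That error was shared across genes (9.68 prior degrees of freedom) and holds no replicate. The number of arrays limits the precision. Genes of other lists were called between the lines where all 4 scalings gave an adjusted p under 0.05. The line term of the fit was tried on simulated data with the same spread for every gene, and the PTHrP term was not. Fewer cells of a type and less RNA per cell cannot be told apart.

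The members and lists were chosen with earlier results of these data known. Named were all members, genes of other lists called between the lines (with no test where a gene passed the filter through 1 line alone), clock loop genes over 1 (log2) in a contrast, further genes of those lists as context, and the 5 nearest profiles of Noct and Per1. Alternatives changed the centring, pseudocount (1 or 64), filter, probe set rule, fold threshold and the variance prior.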

Additional observations from a re-analysis of the deposited data

Results flagged for a closer look

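The Per1 difference between the lines changed sign with the medium, from -0.29 in control medium to 0.34 under PTHrP, a change of 0.63. For Per2 it changed from 0.14 to -0.10, a change of -0.24. The difference after PTHrP had opposite signs in the lines for 4 members: the R150C minus WT value was -0.29 for Per3, -0.41 for Cry1, 1.11 for Cry2 and -0.29 for Noct. None of these differences between groups was tested, since each group is 1 array. Over the genes that passed the filter, 31.7% had opposite line differences in the media and 48.9% had opposite PTHrP differences in the lines.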

How the results depend on the processing

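Noct stayed higher in the R150C line in both media under every setting, from 2.35 to 3.38 (log2), and Dbp stayed lower, from -0.45 to -1.05. No member value of 2-fold or more changed sign, but smaller ones did: with the mean of all probe sets Nr1d2 gave -0.29 between the lines in control medium and Per2 0.15 under PTHrP. Per1 after PTHrP in the R150C line ran from 0.61 (pseudocount 64) to 1.07 (pseudocount 1). Cry2 depended most on the pseudocount, from -0.72 to -2.79 between the lines in control medium. The cause of these shifts was not tested.

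Genes at 2-fold numbered 186 between the lines in control medium, 179 under PTHrP, 24 after PTHrP for WT and 9 for R150C. In that order they were 107, 109, 7 and 2 with a pseudocount of 64, 367, 376, 183 and 136 without the filter, 98, 94, 3 and 4 with a filter set at percentile 75, and 719, 701, 231 and 114 at 1.5-fold. A pseudocount of 1 gave 38 and 22 after PTHrP (WT, R150C), centring on all probe sets 14 in the R150C line, and the mean of all probe sets 5 there. limma's calls between the lines fell from 601 to 33 without the filter, where dim genes enter the shared variance. After PTHrP they rose from 0 to 25 when centred on all probe sets and to 1 without centring. Of all 10 members, 2 reached 2-fold between the lines in control medium (1 with a pseudocount of 64, 4 at 1.5-fold). They were Noct, which was selected on its difference between the lines, and Cry2, which rests on 1 dim probe set. Under PTHrP 1 member, Noct, did so (3 with a pseudocount of 1, 2 at 1.5-fold). In the WT line 1 did so after PTHrP, and 0 when centred on all probe sets, after quantile normalization, with a pseudocount of 64 or with the mean of all probe sets. In the R150C line 0 did so, and 1 with a pseudocount of 1 or at 1.5-fold. The counts of 367, 376, 183 and 136 without the filter are those of all 12393 genes in these comparisons.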

Other observations

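Among the 5 members that passed the filter, the R150C control array gave the highest value of the 4 for Clock, Nr1d1, Nr1d2 and Noct (4 of 5) and the lowest for Per1 (1 of 5). Over all genes that passed it was the highest for 22.4% and the lowest for 28.4%. The second Clock probe set was at its lowest in the same array. Per2 and Cry1, which did not pass, were also highest there, and Cry2 and Dbp lowest. Noct was selected on its difference between the lines. The pattern was noticed after the values were seen and was not tested.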
